A study of Mus musculus with 72 samples.

Results

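Epidermis whose keratinocytes had regained the core clock gene Bmal1, silent in most other tissues of the mice, was compared between the last and the fourth of 6 time points of the day. The comparison holds 8 of the 72 RNA-seq libraries of the series, 4 at time point 6 and 4 at time point 4, chosen by genotype and time point as the titles give them. The mice, labelled RE, were Bmal1-stopFL/K14-Cre animals of the C57BL/6 strain. In them a stop cassette silences Bmal1 (gene Arntl) throughout the body, and Cre recombinase removes the cassette where the keratin 14 promoter is active, in basal keratinocytes and other stratified epithelia. Further genotypes of the same strain serve for comparison: Bmal1-stopFL mice (KO), in which the cassette stays in place in all tissues, and K14-Cre mice (WT), which carry the recombinase without the cassette. All were females of 8 weeks kept in 12 hours of light and 12 hours of darkness, with 4 mice per genotype and time point, so each library stands for a different mouse. The labels give the order of the time points and no clock hours. The design text of the series asks which daily epidermal transcripts persist under a light cycle with or without clocks elsewhere in the body.

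In the mammalian clock, BMAL1 (the protein of Arntl) pairs with CLOCK or NPAS2 and switches on genes that carry E-boxes, among them the Period and Cryptochrome genes, whose proteins return to block the pair. A second loop runs through the nuclear receptors REV-ERB (Nr1d1 and Nr1d2), which repress Arntl, and ROR, which activate it. In epidermis the clock is known to time DNA replication, division and differentiation of keratinocytes over the day, with basal cells dividing next to the basement membrane and their daughters building the cornified barrier above.

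Reads counted in genes came to 3.55e+07 in the shallowest of the 8 libraries and 4.82e+07 in the deepest, and between 21979 and 23439 genes had at least 1 read. Keratinocyte genes were abundant in all 8, with Krt14 between 3435 and 6312 CPM (reads scaled to library size), Krt5 between 7441 and 10717 CPM, Krt1 between 3739 and 6021 CPM and Krt10 between 11208 and 16816 CPM. Summed markers of endothelial cells, skeletal muscle and adipocytes stayed under 5 CPM, while Langerhans cell and macrophage markers summed to between 267 and 712 CPM, T cell markers to between 118 and 174 CPM and fibroblast markers to at most 180 CPM. Hair follicle stem and progenitor markers summed to between 937 and 1737 CPM and sebaceous gland genes to between 693 and 1276 CPM. Both sums were lowest in replicate 4 of time point 4, where hair shaft and root sheath markers were highest, at 431 CPM. The libraries of the series fall into 2 sets by the log2 ratio of reads in the mitochondrial genes mt-Co1 and mt-Nd1, and all 8 lay in the same one, between -6.02 and -5.36. KO libraries of time points 6 and 4 shared that set (-5.85 to -5.09). WT time point 6 did too (-5.61 to -5.21), but WT time point 4 lay in the other (-3.55 to -3.15). In whole epidermis, fewer cells of a type and less RNA per cell cannot be told apart.

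Arntl itself (ENSMUSG00000055116, chr7:113207465-113314126, plus strand, build mm10) was at 96.7, 94.1, 61.2 and 70.7 CPM in RE at time point 6, against 34.4, 67.6, 75.7 and 45.2 CPM in RE at time point 4. In KO it lay between 31.0 and 33.8 CPM at time point 6 and between 30.9 and 33.5 CPM at time point 4. All RE libraries but replicate 1 of time point 4 were clearly above every KO library, and the RE groups overlapped. That replicate lay just above them after TMM scaling, but without that scaling, at 33.5 CPM, it was below replicate 4 of either KO group (33.6 CPM each). The log2 difference of time point 6 over 4 in RE was 0.53 ± 0.19 (SE) and did not pass the test (edgeR's quasi-likelihood test with Benjamini-Hochberg adjustment, adjusted p = 0.242). Npas2, the alternative partner of BMAL1, was at 24.5, 33.4, 12.1 and 19.3 CPM at time point 6 and at 6.67, 10.2, 22.2 and 9.61 CPM at time point 4, with replicate 3 out of line in both groups (0.88 ± 0.30, adjusted p = 0.222). Clock, the usual partner, was near level, with 148 ± 20.9 CPM at time point 6, against 142 ± 9.04 CPM at time point 4 (SD, n = 4 each).

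Of 17170 genes tested, 26 (0.151%) changed between time points 6 and 4 in RE at an adjusted p under 0.05, and none of the 19 core clock genes tested was among them. The REV-ERB receptor genes came close. Nr1d1 (ENSMUSG00000020889, chr11:98767932-98775333, minus strand) was at 31.9, 44.1, 61.5 and 58.2 CPM at time point 6, against 119, 81.9, 70.2 and 160 CPM at time point 4, so the groups did not overlap (-1.14 ± 0.24, adjusted p = 0.0665). Nr1d2 was at 110, 117, 157 and 154 CPM at time point 6, against 405, 194, 154 and 297 CPM at time point 4, with the groups touching at 154 (-0.96 ± 0.23, adjusted p = 0.10). Of the receptors of the opposite sign, Rora, a ROR activator, was at 534 ± 75.0 CPM at time point 6, against 690 ± 191 CPM at time point 4 (-0.37 ± 0.14, adjusted p = 0.300). Rorb lay below the filter on low counts.

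Among the repressors that close the main loop, Per2 (ENSMUSG00000055866, chr1:91415982-91459324, minus strand) was at 35.5, 13.8, 40.6 and 38.4 CPM at time point 6, against 147, 77.5, 51.6 and 86.1 CPM at time point 4 (-1.50 ± 0.33, adjusted p = 0.0714). The groups did not overlap, and replicate 1 of time point 4 stood highest. Cry2 was at 92.5 ± 10.1 CPM at time point 6, against 130 ± 28.3 CPM at time point 4 (SD, n = 4 each; -0.49 ± 0.12, adjusted p = 0.110). Per1 was at 284, 323, 142 and 120 CPM at time point 6 and at 466, 405, 362 and 221 CPM at time point 4 (-0.74 ± 0.30, adjusted p = 0.317). Per3 (-0.63 ± 0.29) and Cry1 (0.17 ± 0.13) had adjusted p-values of 0.386 and 0.623.

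The PAR bZIP factors carry clock timing to output genes and are direct targets of BMAL1. Dbp was at 8.12, 10.7, 38.5 and 27.6 CPM at time point 6 and at 84.3, 38.8, 16.2 and 75.3 CPM at time point 4 (-1.34 ± 0.44, adjusted p = 0.215). Tef was at 193, 190, 347 and 352 CPM at time point 6 and at 575, 320, 273 and 558 CPM at time point 4 (-0.67 ± 0.23, adjusted p = 0.224). In both genes replicates 1 and 4 of time point 4 were high and replicates 2 and 3 low, while at time point 6 replicates 3 and 4 were above replicates 1 and 2. Per3 and Nr1d2 had the same order of the pairs at time point 4, and Arntl the opposite one. Hlf (-0.43 ± 0.21) and Nfil3, the repressor that competes for their sites (0.08 ± 0.28), did not pass. Of the accessory repressors, Ciart was low throughout, at 1.81 ± 0.289 CPM at time point 6, against 3.69 ± 2.36 CPM at time point 4 (-1.03 ± 0.36, adjusted p = 0.237), and Bhlhe40 (-0.16 ± 0.30) and Bhlhe41 (-0.62 ± 0.33) did not pass either. Over all 7 accessory factors listed, 1 was higher and 2 were lower at an unadjusted p under 0.05, against 6.17% and 6.11% of all genes tested, and none passed.

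How far these genes came from the threshold depended on single mice. Without replicate 2 of time point 4, Nr1d1 (adjusted p = 0.0182), Nr1d2 (0.0293), Per2 (0.0317) and Cry2 (0.0318) passed edgeR's test. Without replicate 3 of that group the same 4 genes and Npas2 passed, each at an adjusted p of 0.0499, and without any other RE library none of the 19 did. DESeq2 called Nr1d1, Nr1d2, Per2 and Cry2 on all 16 libraries, and edgeR without a filter on low counts called Nr1d1 and Per2. With only the 8 RE libraries or with all 72, edgeR called none of the 19. Nr1d1 then had adjusted p-values of 0.320 and 0.829, and Nr1d2 of 0.354 and 0.602. In KO, none of these genes passed: Nr1d1 was between 2.80 and 5.71 CPM at time point 6 and between 3.39 and 4.97 CPM at time point 4, and Dbp between 6.25 and 7.22 CPM and between 5.51 and 7.10 CPM.

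**Figure D1:**
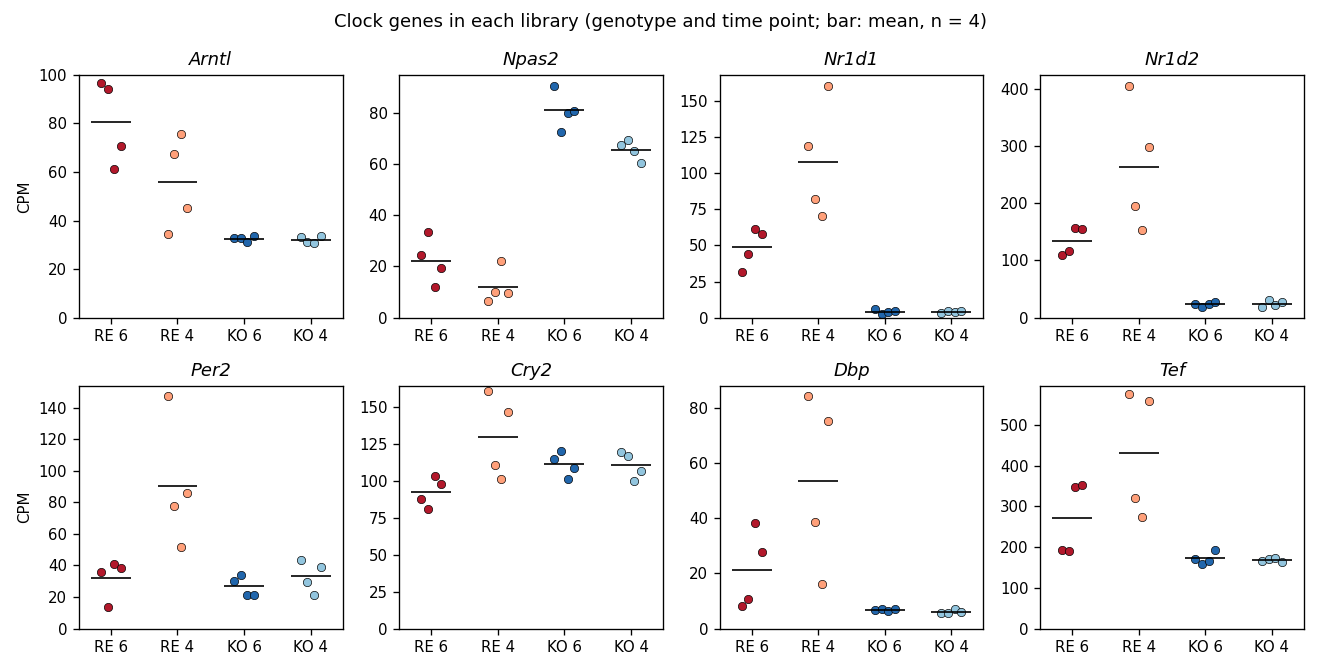
Expression in CPM (linear axes) of 8 clock genes in each library of RE and KO at time points 6 and 4; points are libraries, in the order of replicates 1 to 4, and bars are means of 4. Nr1d1 and Per2 of RE do not overlap between time points 6 and 4, while Dbp and Tef of RE at time point 4 split into a high and a low pair; in KO, Nr1d1 stays at or below 5.71 CPM and Dbp at or below 7.22 CPM at both time points.

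E-boxes (letters CACGTG, the same on both strands) were searched in the RefSeq promoters of GRCm38.p6, from 250 bases before to 50 bases after the gene start. They were present in 3 of the 12 promoters found for the PAR bZIP, REV-ERB, ROR, Period and Cryptochrome genes (25%), those of Per1, Tef and Cry1, and in 7.24% of all 27025 promoters. The promoters of Per1 and Tef are printed because both genes are targets of BMAL1 measured above; capitals mark the E-box.
Per1, chr11:69098699-69098998, plus strand: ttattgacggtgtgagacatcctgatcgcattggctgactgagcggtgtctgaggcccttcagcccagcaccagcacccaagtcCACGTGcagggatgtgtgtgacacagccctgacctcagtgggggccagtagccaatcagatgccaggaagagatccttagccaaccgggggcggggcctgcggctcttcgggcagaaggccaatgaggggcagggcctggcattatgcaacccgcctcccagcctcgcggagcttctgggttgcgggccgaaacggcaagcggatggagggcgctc
Tef, chr15:81802423-81802722, plus strand: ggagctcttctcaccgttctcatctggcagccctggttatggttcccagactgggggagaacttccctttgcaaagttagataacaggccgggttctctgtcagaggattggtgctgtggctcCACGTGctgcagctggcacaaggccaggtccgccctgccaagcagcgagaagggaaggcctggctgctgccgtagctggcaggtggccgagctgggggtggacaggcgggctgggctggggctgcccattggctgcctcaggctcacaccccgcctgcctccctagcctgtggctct
The E-box starts 166 bases before the start of Per1 and 127 bases before that of Tef. A match describes the letters only, and E-boxes farther away were not searched.

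The 26 genes that changed divide into 13 that rose and 13 that fell at time point 6, each 0.0757% of the genes tested, and 5 of them changed more than 2-fold. Falls included the D-type cyclins Ccnd2 and Ccnd1. Rises included 3 genes of the cornified envelope. All 26 had groups that did not overlap, which was so for 4.54% of all genes tested. This follows largely from choosing them by the same difference in the same libraries. Ccnd2 (ENSMUSG00000000184, chr6:127125162-127152193, minus strand), whose protein activates the kinases CDK4 and CDK6 in G1, was at 261, 224, 252 and 316 CPM at time point 6, against 603, 514, 429 and 582 CPM at time point 4. It fell by 1.01 on the log2 scale (SE 0.12, adjusted p = 0.00347), the smallest of all genes. Ccnd1 (ENSMUSG00000070348, chr7:144929931-144939925, minus strand), its relative with the same role, fell to 68.4, 55.4, 70.0 and 72.3 CPM at time point 6, against 126, 111, 98.5 and 128 CPM at time point 4 (-0.80 ± 0.12, adjusted p = 0.0120).

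Dst, whose epithelial product BPAG1 links keratin filaments to hemidesmosomes, was at 213, 200, 165 and 198 CPM at time point 6, against 453, 221, 296 and 411 CPM at time point 4 (-0.83 ± 0.16, adjusted p = 0.0499). Replicate 2 of time point 4, at 221 CPM, lay just above the highest library of time point 6. Tns4, a tensin of focal adhesions, was at 650, 704, 630 and 727 CPM at time point 6, against 1239, 878, 968 and 1036 CPM at time point 4 (-0.60 ± 0.09, adjusted p = 0.0120). Thsd4, a secreted protein of fibrillin microfibrils, was at 25.1 ± 3.53 CPM at time point 6, against 39.2 ± 3.24 CPM at time point 4 (SD, n = 4 each; -0.65 ± 0.11, adjusted p = 0.0319).

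Genes of other roles fell too. The serine/threonine kinase gene Stk35 fell by 0.69 ± 0.10 on the log2 scale and Fam117a by 0.75 ± 0.11 (adjusted p = 0.0120 for both). Fam117a was at 31.1, 31.0, 29.3 and 28.4 CPM at time point 6, a range of under 3 CPM, against 59.6, 41.4, 45.2 and 55.8 CPM at time point 4. Creb5, a bZIP transcription factor, was at 6.24 ± 1.22 CPM at time point 6, against 11.9 ± 0.558 CPM at time point 4 (-0.93 ± 0.16, adjusted p = 0.0333). Enzymes among the falls were Shmt1, the cytosolic serine hydroxymethyltransferase of folate metabolism (-0.49 ± 0.09), and Aldh4a1, of mitochondrial proline breakdown (-0.31 ± 0.06). The remaining 3 were Ncs1, a calcium sensor (-0.48 ± 0.08), Fitm2, which takes part in lipid droplet formation (-0.40 ± 0.07), and Gm49342, annotated as protein-coding (-0.48 ± 0.09).

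The envelope genes that rose encode proteins of the cornified layer. Flg2 (ENSMUSG00000049133, chr3:93197278-93221391, plus strand), of the filaggrin family, was at 197, 227, 231 and 257 CPM at time point 6, against 104, 134, 116 and 68.6 CPM at time point 4 (1.11 ± 0.20, adjusted p = 0.0333). Lor (loricrin), the main protein of the envelope, was low here, at 6.29, 6.49, 8.82 and 8.75 CPM at time point 6, against 2.97, 4.57, 2.97 and 2.30 CPM at time point 4 (1.24 ± 0.21, adjusted p = 0.0318). Cnfn (cornifelin) was at 5.38 ± 0.629 CPM at time point 6, against 2.82 ± 0.478 CPM at time point 4 (SD, n = 4 each; 0.93 ± 0.18, adjusted p = 0.0499). In each of the 3 genes the lowest library was replicate 4 of time point 4.

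Other rises were spread over transport, signalling and surface proteins. Stx11, a syntaxin of vesicle fusion, was at 7.15, 8.68, 8.92 and 9.91 CPM at time point 6, against 4.24, 5.67, 4.15 and 5.09 CPM at time point 4 (0.85 ± 0.12, adjusted p = 0.0120). Slc16a14, of the monocarboxylate transporter family, was at 93.9 ± 4.65 CPM at time point 6, against 64.3 ± 10.7 CPM at time point 4 (0.54 ± 0.10, adjusted p = 0.0333). Nupr1, a stress-induced nuclear protein (0.57 ± 0.10), Dkkl1, a secreted Dickkopf-like protein (0.50 ± 0.09), the membrane mucin Muc15 (0.43 ± 0.08) and Skint3 (0.41 ± 0.07) rose with adjusted p-values of 0.0333. Skint3 belongs to a family of near copies, relatives of Skint1, which selects epidermal T cells in mice, so its count is uncertain.

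Of the 26 genes, 5 lay under a mean of 5 CPM. Ccl20, the chemokine ligand of the receptor CCR6, was at 3.03, 3.91, 2.46 and 3.54 CPM at time point 6, against 0.754, 1.26, 1.65 and 0.853 CPM at time point 4, the largest rise of the 26 (1.52 ± 0.25, adjusted p = 0.0283). The others were Kif5c, a kinesin heavy chain (0.84 ± 0.15), Gng4, a G protein gamma subunit (1.12 ± 0.20), Gm38244 (0.93 ± 0.18) and Cnfn. Ccl20, Kif5c, Gng4, Gm38244 and Aldh4a1 were singled out after their values were seen, outside the rule for named genes.

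The count of 26 changed with the libraries in the fit. With only the 8 RE libraries no gene passed edgeR's test (1446 at an unadjusted p under 0.05), and with all 72 libraries Stk35 alone did. Without replicate 2 of time point 4, 407 genes passed, all 26 among them. Without replicate 1 of time point 6, 82 passed, again with all 26. Without replicate 3 of time point 6, Ccnd2 alone passed, and without replicate 1 of time point 4, Ccnd2, Tns4 and Stk35. The counts were 4 without replicate 4 of time point 6, 9 without replicate 2 of that group, 13 without replicate 4 of time point 4 and 34 without replicate 3 of time point 4. Ccnd2 passed in all 8 of these fits, Tns4 in 7, and Ccnd1, Stk35 and Stx11 in 6, while Dst, Flg2 and Ccl20 passed in 3. DESeq2 called 300 genes on the same libraries, with all 26 among them.

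**Figure D2:**
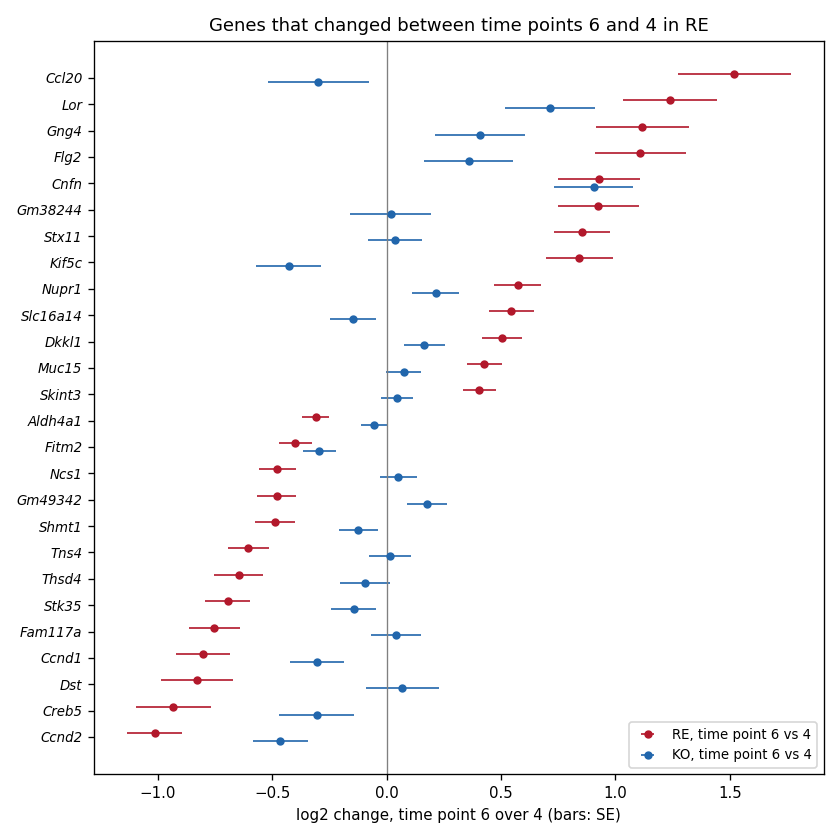
Log2 change of time point 6 over 4 for the 26 genes that passed edgeR's test in RE, in RE and in KO; points are estimates and bars are SE, from the fit of 16 libraries. RE estimates run from -1.01 for Ccnd2 to 1.52 for Ccl20, and each KO estimate is nearer to 0 than the RE one, least so for Cnfn.

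Set beside KO, the same genes had smaller estimates, which follows in part from choosing them by their change in RE. In KO, 2 genes passed between time points 6 and 4 (0.0116%), Cyp26b1 and Tnfsf9, and neither was among the 26. At an unadjusted p under 0.05 there were 1611 (9.38%), 6 of the 26 among them. Ccnd2 in KO was at 231, 251, 214 and 183 CPM at time point 6, against 329, 276, 292 and 316 CPM at time point 4, lower without overlap but short of the threshold (-0.47 ± 0.12, adjusted p = 0.207). Cnfn in KO had a difference near that of RE (0.90 ± 0.17, adjusted p = 0.129). Dst, Tns4 and Fam117a in KO lay within 0.07 of 0 on the log2 scale (0.07 ± 0.16, 0.01 ± 0.09 and 0.04 ± 0.11). The KO estimate had the sign of RE in 18 of the 26 genes, as it had in 54.6% of all genes tested.

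No gene passed the test of the difference between the RE and the KO change (edgeR, 1481 genes or 8.63% at an unadjusted p under 0.05), and the smallest adjusted p was 0.112. DESeq2 called 48 genes on this contrast, and edgeR called 50 without replicate 2 of RE time point 4. Among protein-coding genes at 5 CPM or more, Mknk2 and Arhgap8 had the smallest p. Mknk2, a kinase that acts on the translation factor eIF4E, was at 208, 248, 214 and 230 CPM in RE at time point 6, against 275, 270, 281 and 255 CPM in RE at time point 4. In KO it was at 247, 244, 252 and 234 CPM at time point 6 and at 220, 214, 202 and 191 CPM at time point 4, so both genotypes had groups without overlap and with opposite order (RE minus KO -0.51 ± 0.09, adjusted p = 0.112). Arhgap8, a GTPase-activating protein, had the reverse pattern, with 6.26 ± 0.456 CPM in RE at time point 6 and 4.71 ± 0.505 CPM in RE at time point 4, and a log2 difference of -0.51 ± 0.12 in KO (RE minus KO 0.92 ± 0.16, adjusted p = 0.112). Others in this ranking were Gsto1, a glutathione transferase (-0.47 ± 0.09), Tapbpl, a chaperone of MHC class I (0.46 ± 0.09), and Vsir, an immune checkpoint protein (0.94 ± 0.20), with Tns4, Fam117a, Slc16a14, Gm49342 and Stx11 from above. Nr1d1 (-1.12 ± 0.38, adjusted p = 0.480) and Per2 (-1.17 ± 0.46, adjusted p = 0.519) did not pass this test.

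Genes of the G2 phase and mitosis had higher estimates at time point 6 throughout, with large differences between mice. All 25 members of a list of mitotic genes had a higher estimate at time point 6, with a median log2 difference of 0.80, against -0.01 over all genes tested. None passed at an adjusted p under 0.05 (smallest 0.181), and 23 had an unadjusted p under 0.05, against 6.17% of all genes tested in that direction. Summed over the list, libraries of time point 6 held 1657, 1114, 1162 and 724 CPM, and libraries of time point 4 held 602, 1143, 656 and 420 CPM. Replicate 2 of time point 4 was thus at the level of time point 6 and replicate 4 of time point 6 near that of time point 4. No single member had groups without overlap.

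Cenpa, the histone variant of centromeres, was at 40.6, 31.7, 27.9 and 19.3 CPM at time point 6 and at 11.5, 24.4, 19.4 and 12.3 CPM at time point 4 (0.82 ± 0.25, adjusted p = 0.181). Plk1, a kinase that drives mitotic entry, was at 6.53, 3.52, 4.10 and 2.13 CPM at time point 6 and at 1.13, 3.44, 1.59 and 1.02 CPM at time point 4 (1.17 ± 0.38, adjusted p = 0.214). Nusap1, of the spindle (0.94 ± 0.30, adjusted p = 0.201), and Birc5, of the chromosomal passenger complex (0.93 ± 0.30, adjusted p = 0.212), were likewise highest, within time point 4, in replicate 2. In KO all 25 estimates were below 0 (median -0.23), with none at an unadjusted p under 0.05, against 4.79% of all genes tested in that direction. KO libraries had sums of 676, 1036, 752 and 399 CPM at time point 6, against 946, 821, 938 and 607 CPM at time point 4. The RE minus KO difference had an unadjusted p under 0.05 in 19 of the 25 genes, against 3.71% of all genes tested with a positive difference, and an adjusted p of at least 0.472.

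The number of mitotic genes with an unadjusted p under 0.05 was 6 without replicate 1 of time point 6 and 7 without replicate 1 or replicate 4 of time point 4. It was 14 without replicate 3 of time point 4 and 25 without replicate 2 of that group, where 7 passed the adjusted threshold. In the fit of all 72 libraries it was 9. The number of all genes at an unadjusted p under 0.05 also moved between these fits. It moved in the direction of the mitotic count without replicate 1, 2 or 4 of time point 4 and with all 72 libraries. Without replicate 1 of time point 6 or replicate 3 of time point 4 it rose, while the mitotic count fell. Those falls were thus not part of a shift over all genes. The interferon count given below also fell without replicate 2 of time point 4, where the count of all genes rose. Other list counts below were not set against it, so a shift there may not be specific to a list. Genes of S phase and replication did not share the pattern of the mitotic genes: 7 of 27 estimates were above 0 (median -0.10). Rrm2, a subunit of ribonucleotide reductase, had the one unadjusted p under 0.05 (0.38 ± 0.17, adjusted p = 0.373). That is 1 of 27 on the higher side, beside 6.17% of all genes tested. Wee1, a kinase that holds back mitotic entry and a known clock target, was at 64.6, 53.1, 31.9 and 26.8 CPM at time point 6 and at 112, 93.9, 83.0 and 47.6 CPM at time point 4 (-0.93 ± 0.28, adjusted p = 0.166).

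**Figure D3:**
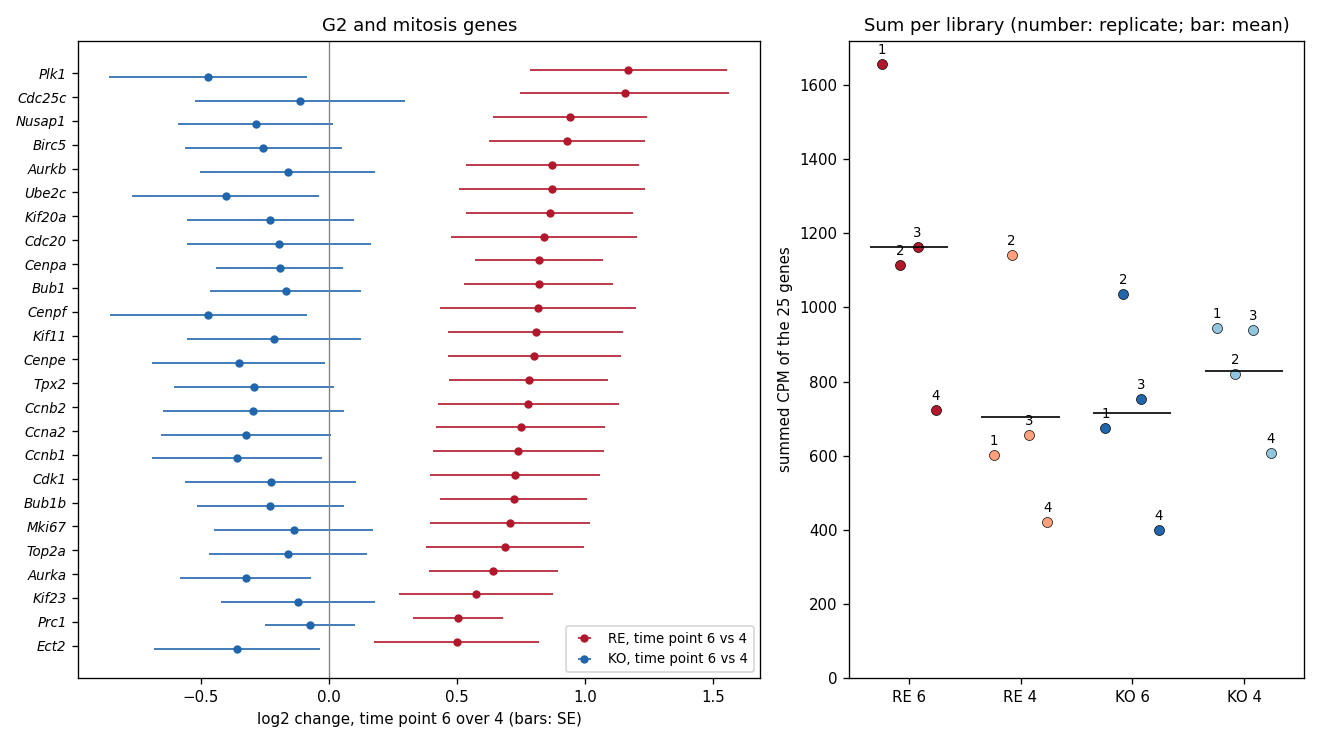
Left, log2 change of time point 6 over 4 (points, with SE as bars) for the 25 G2 and mitosis genes in RE and KO; right, their summed CPM in each library, numbered by replicate, with the mean as a bar. RE estimates lie between 0.50 and 1.17 and KO estimates below 0, while the RE sums overlap, since replicate 2 of time point 4 reaches 1143 CPM and replicate 4 of time point 6 has 724 CPM.

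Mitotic promoters are known for the cell cycle homology region (CHR, letters TTTGAA on either strand) near the gene start, often with CCAAT boxes upstream (CCAAT on either strand). Of the 20 promoters found for the 25 genes, 15 (75%) held a CHR, against 18.1% of all promoters, and 18 (90%) a CCAAT box, against 37.9%. None of the 20 held an E-box. A CCAAT box was as common in the clock gene promoters searched above, in 10 of 12 (83.3%), while none of those held a CHR. Of 20 promoters found for the 26 genes that changed, 2 held an E-box, 2 a CHR and 8 a CCAAT box. The promoters of Cenpa and Plk1 are printed as the mitotic genes described above; capitals mark CHR and CCAAT boxes, written on the gene's strand, and no marked matches overlap.
Cenpa, chr5:30666636-30666935, plus strand: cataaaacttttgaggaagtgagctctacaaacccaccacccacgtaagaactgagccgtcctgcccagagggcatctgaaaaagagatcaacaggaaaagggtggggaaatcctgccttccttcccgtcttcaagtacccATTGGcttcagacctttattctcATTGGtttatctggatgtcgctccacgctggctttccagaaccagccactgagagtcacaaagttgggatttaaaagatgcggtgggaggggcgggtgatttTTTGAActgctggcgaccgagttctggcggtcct
Plk1, chr7:122159185-122159484, plus strand: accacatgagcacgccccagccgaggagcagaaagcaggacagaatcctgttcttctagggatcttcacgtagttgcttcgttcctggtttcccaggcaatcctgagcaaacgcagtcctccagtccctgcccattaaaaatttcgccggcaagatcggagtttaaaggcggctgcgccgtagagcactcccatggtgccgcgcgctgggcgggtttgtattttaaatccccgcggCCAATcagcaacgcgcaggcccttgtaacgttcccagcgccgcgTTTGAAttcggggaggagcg
These matches are letters in the printed window and do not show which factor was bound.

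Genes of keratinocyte layers were arranged by differentiation. In the granular layer and cornified envelope, 19 of 21 genes passed the filter on low counts (Flg and Lce3b did not), 3 rose as given above, and 12 in all were higher and 1 lower at an unadjusted p under 0.05, against 6.17% and 6.11% of all genes tested, with a median of 0.45. The others on the higher side were Hrnr, Ivl, Lce1a1, Lce1b, Lce1m, Crct1, Kprp, Cdsn and Asprv1. Hrnr (hornerin), a relative of filaggrin, was at 92.3, 94.7, 96.6 and 160 CPM at time point 6, against 62.8, 66.2, 51.3 and 34.8 CPM at time point 4, without overlap (1.04 ± 0.22, adjusted p = 0.0665). Tgm3, a transglutaminase that cross-links the envelope, was the one on the lower side (-0.56 ± 0.23, adjusted p = 0.325), named after its value was seen. The KO median was 0.56, above that of RE, with 7 genes higher at an unadjusted p under 0.05, against 4.6% of all genes tested. In RE, 10 of the 19 were higher without overlap between the groups, against 2.39% of all genes tested. The 3 calls became 0 without replicate 3 or 4 of time point 6, without replicate 1 or 4 of time point 4, and with only the 8 RE libraries or all 72. They became 1 without replicate 2 of time point 6, and 5 genes passed without replicate 2 of time point 4.

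Below that layer, 6 of 13 spinous and desmosome genes were higher at an unadjusted p under 0.05 (median 0.07), against 6.17% of all genes tested in that direction, among them Krtdap, a differentiation peptide (0.30 ± 0.08, adjusted p = 0.137), Sbsn (suprabasin; 0.26 ± 0.07, adjusted p = 0.137) and Krt77 (0.23 ± 0.09, adjusted p = 0.273). That number was 3 without replicate 3 of time point 6, without replicate 4 of time point 4 or with only the 8 RE libraries, and 0 with all 72 libraries. In the basal layer all 14 genes had an estimate below 0 (median -0.18), and 7 had an unadjusted p under 0.05, against 6.11% of all genes tested in that direction. Dst was the one that passed, and in 3 of the 14 the groups did not overlap, with time point 6 lower, against 2.14% of all genes tested. Krt15, a keratin of basal cells, was at 4409, 4822, 4757 and 4627 CPM at time point 6, against 6054, 5652, 6019 and 5635 CPM at time point 4, with no overlap and little spread (-0.33 ± 0.07, adjusted p = 0.0661). Col17a1, the hemidesmosomal collagen (-0.24 ± 0.08, adjusted p = 0.207), and Lamb3, a laminin chain of the basement membrane (-0.25 ± 0.08, adjusted p = 0.200), leaned the same way. The 7 became 4 without replicate 3 of time point 6 or replicate 1 of time point 4, and 1 with all 72 libraries. Krt14 and Krt5, the main basal keratins, were at 4255 ± 420 and 8050 ± 594 CPM at time point 6, and at 4422 ± 1332 and 8533 ± 1469 CPM at time point 4.

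Barrier enzymes and proteases did not reach the threshold. Of 16 barrier lipid enzymes, 7 were higher and 2 lower at an unadjusted p under 0.05, against 6.17% and 6.11% of all genes tested, and none passed. Smpd1, an acid sphingomyelinase that makes ceramide (0.28 ± 0.08), Elovl1, a fatty acid elongase (0.25 ± 0.08), and the lipoxygenase Alox12b (0.58 ± 0.20) were higher, with adjusted p-values between 0.155 and 0.225. Aloxe3, the next enzyme of that lipoxygenase step (-0.28 ± 0.13), and Elovl7 (-0.20 ± 0.07), both named after their values were seen, were lower. The 7 became 4 without replicate 1 of time point 4 or with only the 8 RE libraries, and 2 with all 72. Of 14 proteases and inhibitors of shedding, 4 were higher at an unadjusted p under 0.05, against the same 6.17%. Klk5, a kallikrein of the stratum corneum, was at 98.3 ± 13.7 CPM at time point 6, against 67.4 ± 9.31 CPM at time point 4 (0.54 ± 0.13, adjusted p = 0.0967). Serpina12 (vaspin), an inhibitor of kallikrein KLK7, was at 11.2, 11.2, 11.7 and 12.8 CPM at time point 6, against 8.22, 5.83, 5.88 and 4.83 CPM at time point 4 (0.92 ± 0.19, adjusted p = 0.0637).

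Sterol synthesis had an estimate above 0 in all 20 genes (median 0.31), with 8 at an unadjusted p under 0.05, against 6.17% of all genes tested in that direction, and none past the adjusted threshold. Fdps, which makes farnesyl diphosphate, was at 16.8, 14.1, 20.1 and 13.3 CPM at time point 6, against 9.75, 12.5, 10.1 and 10.6 CPM at time point 4, without overlap (0.58 ± 0.16, adjusted p = 0.137). Mvk, mevalonate kinase (0.30 ± 0.09), Sc5d, a late desaturase (0.40 ± 0.13), and Sqle, squalene epoxidase (0.40 ± 0.15), followed, with adjusted p-values of 0.183, 0.200 and 0.285. Replicate 2 of time point 4 was the highest of its group for Sc5d and Sqle, as it was for the mitotic genes. The 8 became 3 without replicate 4 of time point 4, 4 without replicate 3 of time point 6, 5 without replicate 3 of time point 4 and 15 without replicate 2 of time point 4. With all 72 libraries it was 3. In KO, 18 of the 20 sterol estimates were also above 0 (median 0.13), with none at an unadjusted p under 0.05. The RE minus KO difference was positive at that level in 1 of the 20, against 3.71% of all genes tested. Of the 12 sebaceous gland genes, Dgat2, which makes triglycerides (0.28 ± 0.07, adjusted p = 0.111), and the fatty acid carrier Fabp5 (0.46 ± 0.12, adjusted p = 0.137) had an unadjusted p under 0.05 in RE. Both were higher, beside 6.17% of all genes tested in that direction. Their list summed to between 1005 and 1276 CPM at time point 6 and between 693 and 1061 CPM at time point 4.

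Genes induced by glucocorticoids, a signal that reaches skin through the blood, varied widely between mice. Of 13 tested, 6 were lower at an unadjusted p under 0.05, against 6.11% of all genes tested, and none passed. Zbtb16, a zinc finger repressor, was at 68.8, 72.5, 42.2 and 36.7 CPM at time point 6 and at 385, 47.8, 354 and 176 CPM at time point 4 (-2.13 ± 0.44, adjusted p = 0.0642). Its replicate 2 of time point 4 lay within the range of time point 6, and without that library it passed (-2.47, adjusted p = 0.00157). Fkbp5, a co-chaperone of the glucocorticoid receptor, was at 36.9, 45.7, 22.1 and 46.0 CPM at time point 6 and at 180, 37.1, 137 and 22.6 CPM at time point 4, with replicates 1 and 3 high (-1.32 ± 0.53, adjusted p = 0.308). Tsc22d3 (-0.90 ± 0.28, adjusted p = 0.198) and Sgk1 (-0.43 ± 0.15, adjusted p = 0.231) were both highest in replicate 1 of time point 4, and Per1 and Klf9 (-0.67 ± 0.27), also on the list, had the highest level there too. The 6 became 2 without that library, 3 without replicate 3 of time point 6, 4 without replicate 4 of that group and 9 without replicate 2 of that group. In KO the list leaned the other way (median 0.35, against -0.43 in RE), and the RE minus KO difference was negative with an unadjusted p under 0.05 in 8 genes, against 4.92% of all genes tested, and passed in none.

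Immediate early genes had a similar split, with 19 of 20 estimates below 0 in RE (median -0.24) and a median of 0.33 in KO. In RE Klf6 (-0.72 ± 0.25), Klf4 (-0.35 ± 0.12) and Fosb (-0.44 ± 0.16) had an unadjusted p under 0.05, against 6.11% of all genes tested in that direction, with adjusted p-values between 0.233 and 0.257. The RE minus KO difference was negative with an unadjusted p under 0.05 in 14 of the 20 genes, against 4.92% of all genes tested, and passed in none. Fosb was at 2493, 3442, 2394 and 2908 CPM at time point 6 and at 4703, 3281, 3026 and 4188 CPM at time point 4, levels measured in cells that had been freed by warm dispase digestion. The part of that step in these values was not tested.

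Interferon response genes had a median of 0.65 over the 13 of 17 that passed the filter on low counts, against -0.01 over all genes tested. The 17 genes of the list summed to 233, 175, 182 and 351 CPM at time point 6 and to 204, 172, 206 and 206 CPM at time point 4, so replicate 4 of time point 6 was the highest. Of the 13, 4 were higher at an unadjusted p under 0.05, against 6.17% of all genes tested in that direction. Among them were Stat2 (0.48 ± 0.13, adjusted p = 0.137), Isg15 (0.85 ± 0.39) and Bst2 (0.50 ± 0.22), while Usp18, which dampens the response, was lower (-0.60 ± 0.20, adjusted p = 0.207). The 4 higher genes became 1 without replicate 4 of time point 6 or replicate 2 of time point 4, and 2 without replicate 1 of either time point. They became 9 without replicate 2 of time point 6 and 11 without replicate 3 of that group. Langerhans cell and macrophage markers had 13 of 14 estimates above 0 and none at an unadjusted p under 0.05. They summed to 712, 516, 454 and 636 CPM at time point 6 and to 573, 503, 524 and 267 CPM at time point 4. The part of Langerhans cells in any result above was not tested.

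**Figure D4:**
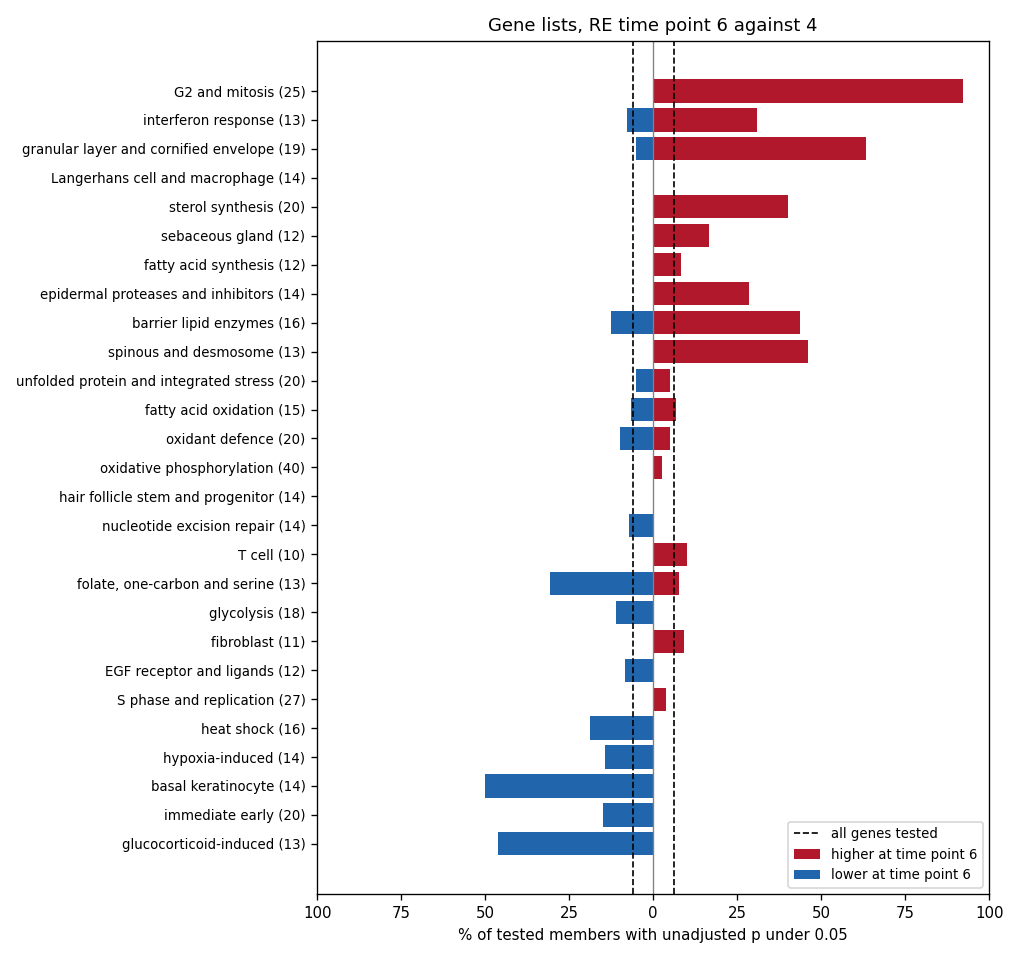
Share of tested members (number in brackets) with an unadjusted p under 0.05 in RE, higher at time point 6 to the right and lower to the left; dashed lines give the shares over all 17170 genes tested, 6.17% higher and 6.11% lower. G2 and mitosis has 23 of 25 on the higher side, the granular layer 12 of 19, and the basal list 7 of 14 on the lower side.

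Across the other time points of RE, levels were set on a common scale of all 72 libraries. Ccnd2 ran at 525 ± 77.4 CPM at time point 4, 330 ± 72.5 CPM at time point 5 and, at time point 6, 261 ± 37.9 CPM (SD, n = 4, or 3 at time point 5). Replicate 3 of time point 5 was left out there, since its Krt14 level was 273 CPM, without TMM factors, against 4022 to 4147 CPM in the other 3. With it, the mean was 260 ± 153 CPM. Among the 26 genes, the mean at time point 5 without that library lay between those of time points 4 and 6 in 20, beyond that of time point 6 in 5 and beyond that of time point 4 in 1. In WT, the mean at time point 6 differed from that at time point 4 in the direction of RE for all 26 genes, as it did for 60.5% of all genes tested, with a log2 difference of 0.00 for Skint3 and -1.27 for Ccnd2. Ccl20 in WT was at 2.72 ± 0.669 CPM at time point 6, against 0.635 ± 0.181 CPM at time point 4 (SD, n = 4 each). WT time points 6 and 4 lie in different mt-Co1/mt-Nd1 sets, so time and set cannot be told apart there.

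The means of Dbp and Per2 lay farther apart in WT. Dbp was at 21.0 ± 14.3 CPM in RE at time point 6 and 53.0 ± 31.4 CPM in RE at time point 4 on this scale. In WT it was at 5.40 ± 1.82 CPM at time point 6, against 87.0 ± 28.9 CPM at time point 4. Per2 was at 31.8 ± 12.2 CPM in RE at time point 6 and 89.6 ± 40.3 CPM in RE at time point 4, and at 24.8 ± 16.8 CPM and 144 ± 12.9 CPM in WT at these time points. The difference between RE and WT was not tested. The mitotic sum was 1153 ± 378 CPM in RE at time point 6 and 697 ± 307 CPM in RE at time point 4, beside 1039 ± 102 CPM and 524 ± 151 CPM in WT.

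**Figure D5:**
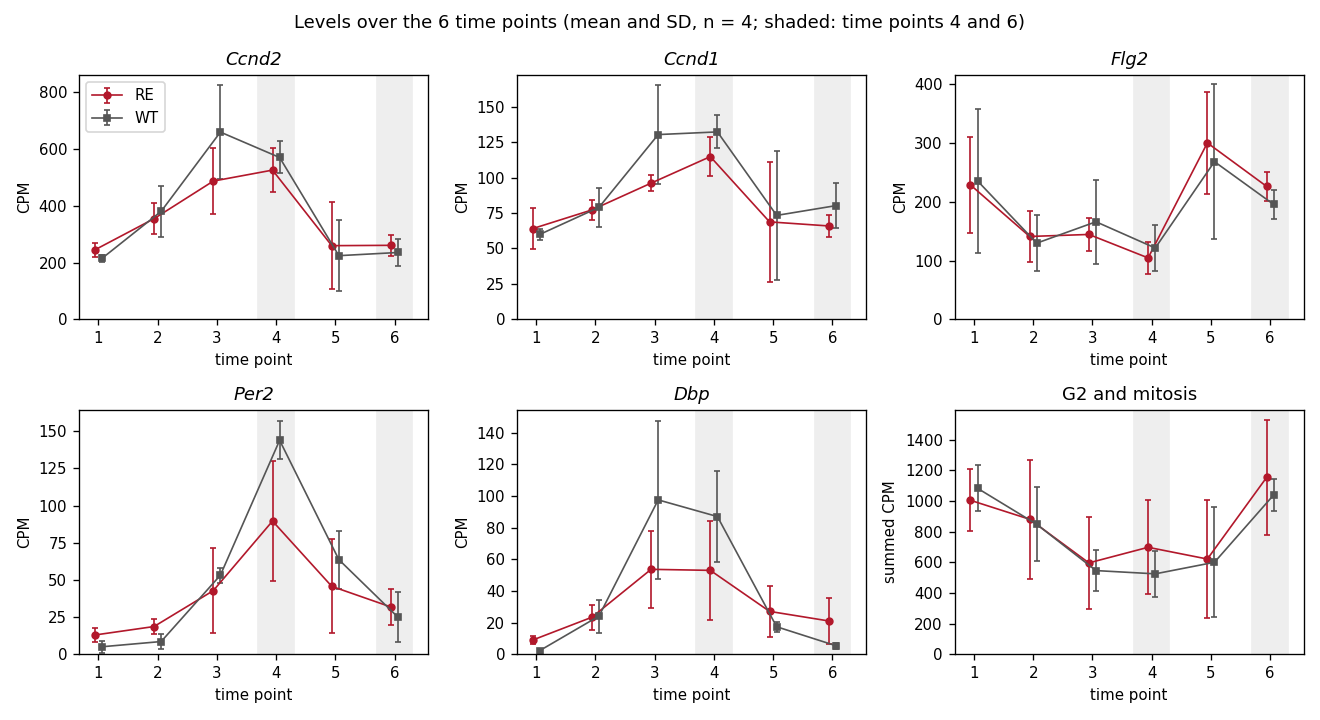
Mean CPM and SD (n = 4 per point) over the 6 time points in RE and WT for 5 genes and the summed G2 and mitosis genes, with time points 4 and 6 shaded; RE time points 1 to 3 and WT time points 1 to 4 belong to the other mt-Co1/mt-Nd1 set. Ccnd2 in RE stands at 261 CPM at time point 6, against 525 CPM at time point 4, and 1 RE and 1 WT library with low Krt14 widen the SD at time point 5.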

How the data were processed

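RNA-seq counts per gene were deposited by the authors for each library. Per the submitters' processing notes, Trimmomatic, TopHat2 2.1.1 and HTSeq were used with mm10/GRCm38; the strand setting is not given in the sources used here, so reads of overlapping and antisense genes cannot be told apart. The files list 46078 genes, of which 45229 matched GENCODE M21 names, and 5 summary lines that were left out (no feature 13.3% to 17.2% and ambiguous 1.36% to 1.61% of the counts in the 8 RE libraries).

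The 8 RE and 8 KO libraries of time points 6 and 4 were fitted in edgeR 4.0.16 (R 4.3.3; filterByExpr, TMM, group means, quasi-likelihood test, Benjamini-Hochberg over 17170 genes, threshold 0.05). CPM, fold changes, their SE and list counts were computed from the deposited counts. KO entered the fit to share the estimate of the spread, but the mice of RE differed more. The squared difference between 2 libraries of a group was divided by the sampling variance and averaged over genes. This ratio was 36.3 to 86.8 within RE time point 4 and 23.9 to 48.8 within RE time point 6. Within the KO groups it was 14.2 to 34.1. The shared estimate can thus understate the spread of RE, and the SE and adjusted p-values of RE with it. Alternatives used other normalizations and filters, DESeq2 1.42.0, limma-voom (limma 3.58.1), other sets of libraries, a replicate block, and each library left out. In data simulated on these libraries (17170 genes), the RE comparison recovered 78 of 100 genes changed 1.5-fold and 99 of 100 changed 3-fold, with 4.32% false calls. The RE minus KO difference recovered 47 and 98, with 7.64% false calls. Changes were planted only in genes with a mean of more than 100 reads, so recovery at lower counts was not examined. How far these rates hold for the RE libraries themselves, which differed more between mice than those of KO, was not tested. In all 24 pairs of libraries within groups, the squared difference averaged at least 14.2 times the sampling variance.

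Named genes were the clock genes, the 12 largest rises and falls among called protein-coding genes at a mean of 5 CPM or more, up to 4 members of smallest p per list, and the 10 protein-coding genes of smallest p for the RE minus KO difference at that level; some of them are not reported here. The 41 lists hold 554 genes, of which 503 were tested, 49 lay below the filter and 2 were unmatched. Members and lists were chosen with earlier results of these data known. Promoters are RefSeq's for GRCm38.p6, matched by symbol.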

Additional observations from a re-analysis of the deposited data

Results flagged for a closer look

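In 184 groups of 4 libraries examined for the genes named, 7 held 1 library far from the other 3 by Dixon's test, which chance gives in about 1 in 20 groups. At RE time point 6, Hrnr had 160 CPM in replicate 4, against 92.3 to 96.6 CPM in the others of that group. Sbsn had 1944 CPM in replicate 1, against 2318 to 2388 CPM. Sgk1 had 88.7 CPM in replicate 3, against 113 to 116 CPM. At RE time point 4, Sgk1 had 194 CPM in replicate 1, against 125 to 137 CPM. Nupr1 had 19.4 CPM in replicate 1, against 26.3 to 27.4 CPM. Muc15 had 49.3 CPM in replicate 3, against 40.4 to 41.6 CPM. Sc5d had 70.4 CPM in replicate 2, against 45.3 to 48.4 CPM.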

How the results depend on the processing

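The 26 genes called in RE became 72 without a filter on low counts, 300 with DESeq2, 1 with all 72 libraries and 0 with only the 8 RE libraries, also with a replicate block there, a fit added after seeing the data (1446 and 1626 at an unadjusted p under 0.05). Other normalizations, a minimum of 5 CPM and limma-voom gave 24 to 31. Leaving out 1 library gave between 1 and 407. In KO the 2 calls became 4 without a filter, 0 at a minimum of 5 CPM, 107 with DESeq2, 1 with limma-voom and 0 with all 72 libraries, and between 0 and 3 with 1 library left out. The RE minus KO difference had 48 calls with DESeq2 and otherwise 0, and between 0 and 50 with 1 library left out. Among the genes named here, the sign of the RE estimate changed under some alternative for Clock, Nfil3 and Bhlhe40, none of them called, and for no other. Causes were not tested.

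With the replicate number as a block, 116 genes passed in RE (all 26 among them, and Nr1d1 and Per2 at adjusted p-values of 0.0458 and 0.0461, against 0.255 and 0.228 with the block on only the 8 RE libraries), 72 in KO and 0 for the difference. Same-numbered libraries of different groups had correlated deviations of -0.178 to 0.44, over 0.1 in 14 of 24 pairs (in all 4 of RE time point 6 with KO time point 4), against -0.553 to 0.368 for different numbers, so the numbers were not taken to pair the mice. Genes below the filter on low counts were not tested at this depth.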
